A study of Mus musculus with 6 samples.

Results

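Adipokines are proteins that fat cells release into the blood or the surrounding tissue. Leptin (Lep), resistin (Retn), adipsin (Cfd), apelin (Apln), visfatin (Nampt), chemerin (Rarres2), neuregulin 4 (Nrg4) and vaspin (Serpina12) were followed here in mouse adipose tissue. A gene was taken as measured where the platform annotation gave a probe set with its symbol alone. By this rule 6 of the 8 named genes were measured, of 22180 genes tested in all, and each of the 6 had 1 probe set. Cfd had no such probe set. The 1 probe set of Rarres2 also carries the symbol of another gene, so neither gene was analysed here.

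The series asked how adipose tissue of offspring differs when the mother ate a chromium restriction diet rather than a control diet. Chromium is a metal eaten in trace amounts. There were 3 samples from offspring of dams on chromium restriction and 3 from offspring of dams on the control diet, all taken at 32 weeks of age. Total tissue RNA was hybridised to 1-colour arrays, 1 array per sample. The fat depot, the sex, the strain and any pooling of animals are not stated in the labels, and nothing says that the samples came from separate animals or litters. The p-values therefore measure only the spread between these samples, and the number of arrays limits the precision.

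Leptin is made by white adipocytes roughly in proportion to stored fat, and signals to the hypothalamus through the leptin receptor to restrain feeding. Resistin is secreted by adipocytes in mice, where it opposes the action of insulin in liver. Nampt encodes the rate-limiting enzyme of NAD salvage, which is also found outside cells, and its transcription follows the circadian clock. Nrg4 is a ligand of the ErbB receptor tyrosine kinases, enriched in brown fat and known to act on hepatocytes. Apelin signals through a G protein-coupled receptor on endothelium and heart, and vaspin is a serine protease inhibitor.

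The promoters of the 4 measured adipokines that the results turn on are shown from RefSeq (GRCm38.p6), each with 250 bases before and 50 after the start that the RefSeq table uses. For Nrg4 that start lies inside the outer bounds of the annotated gene. Letters in capitals mark a match to a C/EBP motif.
Lep (chr6:29059971-29060270, plus strand): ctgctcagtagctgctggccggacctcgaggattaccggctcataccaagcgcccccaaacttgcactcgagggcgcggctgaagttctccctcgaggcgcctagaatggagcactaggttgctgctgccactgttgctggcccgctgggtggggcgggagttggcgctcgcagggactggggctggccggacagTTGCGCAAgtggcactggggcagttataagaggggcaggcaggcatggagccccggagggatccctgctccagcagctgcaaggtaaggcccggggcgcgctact
Retn (chr8:3655520-3655819, plus strand): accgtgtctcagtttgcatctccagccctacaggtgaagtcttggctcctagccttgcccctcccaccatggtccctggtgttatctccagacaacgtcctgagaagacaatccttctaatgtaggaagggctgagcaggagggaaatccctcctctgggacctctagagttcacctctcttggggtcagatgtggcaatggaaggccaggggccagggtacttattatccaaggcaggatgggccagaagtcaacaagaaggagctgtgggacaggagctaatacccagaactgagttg
Nampt (chr12:32820085-32820384, plus strand): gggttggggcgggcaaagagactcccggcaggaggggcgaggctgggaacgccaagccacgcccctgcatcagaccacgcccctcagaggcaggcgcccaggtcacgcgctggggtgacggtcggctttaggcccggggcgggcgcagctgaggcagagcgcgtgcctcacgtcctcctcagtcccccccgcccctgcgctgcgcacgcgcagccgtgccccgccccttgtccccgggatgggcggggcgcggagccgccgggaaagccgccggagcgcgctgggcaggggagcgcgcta
Nrg4 (chr9:55283576-55283875, minus strand): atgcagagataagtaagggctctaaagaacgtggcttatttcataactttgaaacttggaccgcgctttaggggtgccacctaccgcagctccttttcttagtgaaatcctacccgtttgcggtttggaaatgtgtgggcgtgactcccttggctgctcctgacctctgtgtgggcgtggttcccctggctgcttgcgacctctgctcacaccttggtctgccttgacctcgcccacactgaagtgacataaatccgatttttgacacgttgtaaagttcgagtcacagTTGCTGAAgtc
In all, 3 motifs were searched on both strands, the E-box CACGTG of clock activators, the C/EBP motif TTGCNNAA and the PPAR and RXR element, a direct repeat of AGGTCA with 1 base between. They are held by 7.15%, 10.8% and 0.0396% of the 32851 RefSeq promoters. The Lep promoter held TTGCGCAA starting 55 bases before that start, and the Nrg4 window held TTGCTGAA from base 40 after it. No match to any of the 3 motifs lay in the Retn or Nampt window. These are matches of letters only.

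Before the results, several properties of the arrays bear on the adipokine values. Array medians lay between 5.44 and 5.57 on the log2 scale, and pairs of arrays correlated at 0.95 to 0.99 over all probe sets. Hepatocyte markers, Alb, Apoa1 and Apoa2 among them, had mean log2 intensities of 11.12, 6.01 and 10.66 in chromium restriction replicates 1, 2 and 3, against 6.03 to 6.39 in controls (12 of 12 measured). Intestinal epithelium markers averaged 5.93, 6.72 and 5.80 in chromium restriction arrays, against 5.34, 5.51 and 5.28 in controls (12 of 12 measured). Of these, 2 passed limma's test, both higher, where 0.0902% of all genes passed upward. They were Fabp2 and Apoa4 (adjusted p of 0.00358 and 0.0120), high on all 3 chromium restriction arrays. Neither lies in a row written with extra digits, as described below, but with such rows left out no gene passed. Some other settings given at the end also left no gene past the test. Sis and Muc13 were raised in chromium restriction replicate 2 only, at 7.09 and 7.55. The higher intestinal means of chromium restriction replicates 1 and 3 came mostly from Fabp2 and Apoa4. Apoa4 was at 10.34 and 9.47 on these arrays, against 6.69 to 7.32 in controls. Of the other markers, Vil1 and Lgals4 also lay above all controls on all 3 arrays, with log2 differences of 0.28 and 0.44. Whether replicates 1 and 3 hold intestinal RNA was not tested. Brown adipocyte markers averaged 6.25, 5.51 and 6.26 in chromium restriction arrays, against 7.97, 5.76 and 6.47 in controls (9 of 10 measured). Slc27a2, which was high on the arrays rich in hepatocyte transcripts, is on that list, and the other 8 genes averaged 5.66, 5.56 and 5.75 in chromium restriction arrays, against 8.10, 5.77 and 6.54 in controls. Adipocyte markers such as Fabp4 and Lpl were bright on all 6 arrays, with Fabp4 at 13.53 to 13.70 in chromium restriction arrays and 13.60 to 13.72 in controls. Both differed least of the 11 measured adipocyte markers, all of which were lower by mean in the chromium restriction group. In bulk tissue, fewer cells of a type and less RNA per cell cannot be told apart.

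Of the 6 measured adipokines, 1 passed an adjusted p of 0.05 in limma, where 0.194% of all genes passed (0.0902% higher and 0.104% lower). That gene was Retn, whose row in the deposited table is written differently from most others, as described below. Lep did not pass, with nearly equal means, while Nampt and Nrg4 were lower in the chromium restriction arrays without passing. In 3 of the 6 genes the groups did not overlap, Retn higher and Nampt and Nrg4 lower, against 9.6% of all genes. The median log2 difference of the 6 genes was -0.012, beside -0.018 over all genes tested. With so few members these shares describe the 6 genes only.

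**Figure D1:**
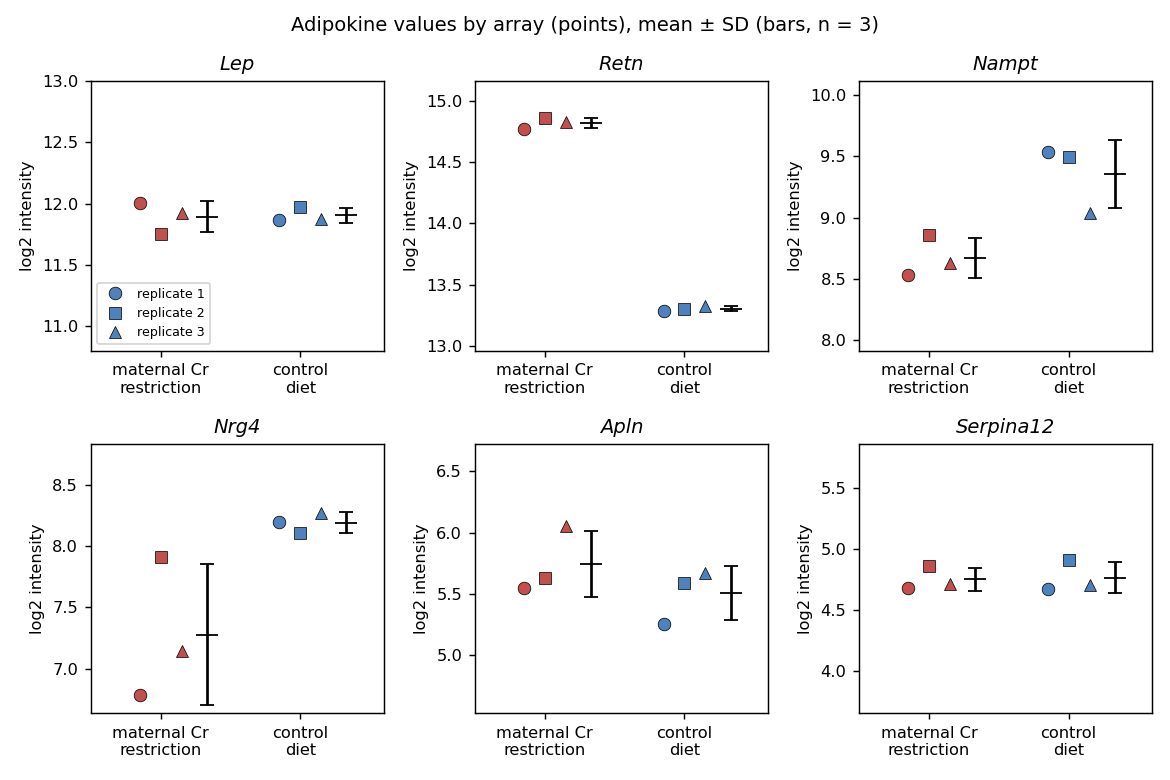
Log2 intensity of the 6 measured adipokine genes in each array, chromium restriction on the left and control diet on the right of each panel, with the mean and SD of 3 arrays beside the points. Lep overlaps between groups near 11.9, Retn sits near 14.8 against 13.3, and Nampt and Nrg4 are lower in every chromium restriction array than in any control.

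Lep had log2 intensities of 12.005, 11.75 and 11.92 in chromium restriction replicates 1, 2 and 3, against 11.87, 11.98 and 11.88 in control replicates 1, 2 and 3. The groups overlapped, with both the highest and the lowest value in the chromium restriction group. The mean was 11.89 ± 0.13 in the chromium restriction group and 11.91 ± 0.06 in controls (SD, n = 3 each). The log2 difference was -0.012 (95% interval -0.23 to 0.21, limma adjusted p = 0.997). Leptin mRNA thus showed no difference detectable with these arrays, and the interval leaves room for a change of up to about 0.2 log2 units either way.

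For the receptor and the signalling chain of leptin no gene passed either. Lepr, the leptin receptor, had log2 intensities of 6.12, 6.71 and 6.88 in chromium restriction arrays, against 7.22, 5.98 and 5.81 in controls, with overlapping groups. Of 13 measured genes of leptin signalling, 0 passed limma's test in either direction, 0 had an unadjusted p under 0.05, and in 0 the groups did not overlap. Their median log2 difference was -0.029. The smallest p belonged to Stat5a, a transcription factor downstream of the receptor, with a log2 difference of -0.28 ± 0.14 (SE, n = 3, limma adjusted p = 0.844). Irs1 and Irs2, the insulin receptor substrates that leptin can also engage, differed by -0.31 and 0.39, and Leprot by -0.17, with limma adjusted p of 0.900, 0.939 and 0.903.

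Retn was listed at 14.77, 14.86 and 14.82 in chromium restriction replicates 1, 2 and 3, against 13.28, 13.30 and 13.32 in the controls. All 3 chromium restriction values lay above all 3 controls, with a mean of 14.82 ± 0.04 in the chromium restriction group and 13.30 ± 0.02 in controls (SD, n = 3 each). The log2 difference of the listed values was 1.52 (95% interval 1.36 to 1.67, limma adjusted p = 0.00118). With the 11 adipocyte markers as a covariate the listed difference was 1.57 and missed the threshold (limma adjusted p = 0.0805). It also missed it where 1 array was left in a group, at 1.56 without both arrays rich in hepatocyte transcripts (adjusted p = 0.0570) and 1.52 without both controls with raised Ucp1 (adjusted p = 0.394), and a lone array is assumed there to vary like the other group.

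The text of the Retn row sets its chromium restriction values apart. Most deposited values are single-precision numbers in their shortest decimal form, while 183 of 202758 carry further digits. Of the 183, 149 lie on chromium restriction arrays and 34 on controls. All 3 Retn values of the chromium restriction group are among the 183, each with 8 decimals. None of the 3 Retn control values is, and they have 6 or 7 decimals. Retn was the 1 measured adipokine in such a row, and 0.234% of all genes tested were. How these values came to be written so is not stated in the labels, so the difference is one between listed values.

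Retn ranked first of all 33793 probe sets on each chromium restriction array. On controls 1, 2 and 3 it ranked 24, 16 and 19. The chromium restriction values exceeded the next highest probe set of the same array by 0.96 to 0.98 log2 units, while the control values lay 0.60, 0.51 and 0.52 below the highest. That highest value of another probe set was itself alike on all arrays, at 13.82 to 13.88 in the chromium restriction group and 13.81 to 13.89 in controls. With the 183 values set to missing, Retn has no value in the chromium restriction group and no difference can be computed.

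**Figure D2:**
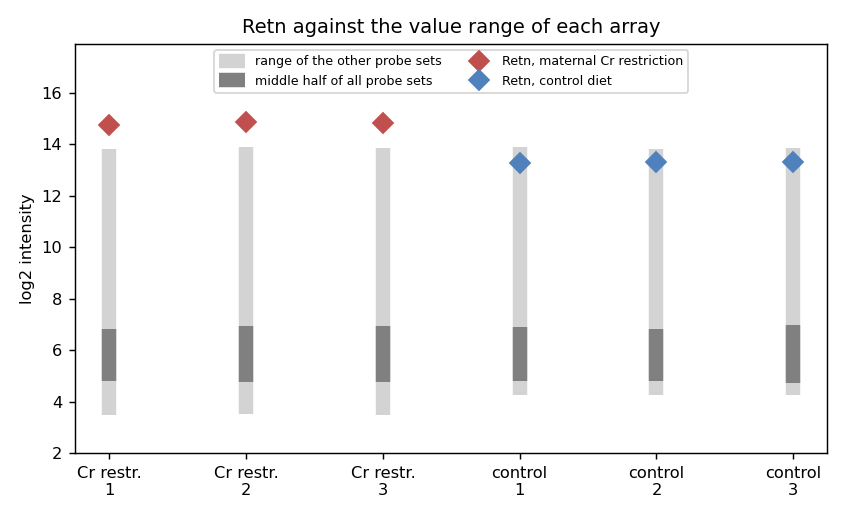
Retn log2 intensity (diamonds) on each array against the range of all other probe sets (light bars) and the middle part between the quartiles (dark bars), chromium restriction arrays on the left. Retn lies above every other probe set on the 3 chromium restriction arrays and inside the range on the 3 controls.

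The 3 resistin-like genes, relatives of Retn, overlapped between groups. Retnla, made by alternatively activated macrophages and by fat tissue, was at 11.58, 10.94 and 10.25 in chromium restriction arrays, against 9.71, 11.13 and 10.99 in controls, with overlapping groups. Its log2 difference was 0.31 ± 0.48 (SE, n = 3, limma adjusted p = 0.991). Retnlb and Retnlg were below the array median on all 6 arrays and differed by -0.017 and 0.082. Possible resistin receptors gave small differences too, 0.021 for Cap1, which binds resistin in human cells, and -0.22 for Tlr4, with limma adjusted p of 0.997 and 0.845.

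Transcription factors known to control adipokine genes split by how their rows are written. Of 10 measured factors 3 passed limma's test, all higher, where 0.0902% of all genes passed upward: Pparg (log2 difference 1.98), the nuclear receptor of adipocyte differentiation, Srebf1 (1.08), a lipid synthesis regulator, and Cebpa (0.82), a C/EBP factor. All 3 lie in rows with extra digits, as does Retn. Of the other 7, 0 passed, and their median log2 difference was 0.045. Among them Cebpd, another C/EBP factor, was at 6.42, 6.42 and 6.96 in chromium restriction arrays, against 6.36, 6.39 and 5.79 in controls, and Foxo1 differed by -0.21 (limma adjusted p = 0.817).

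Nampt had log2 intensities of 8.53, 8.85 and 8.63 in chromium restriction replicates 1, 2 and 3, against 9.54, 9.49 and 9.03 in the controls. Every chromium restriction value lay below every control. The mean was 8.67 ± 0.16 in the chromium restriction group and 9.36 ± 0.28 in controls (SD, n = 3 each). The log2 difference was -0.68 (95% interval -1.07 to -0.29), a 1.61-fold lower level, with an unadjusted p of 0.00494 that became an adjusted p of 0.617 in limma over all genes. It was lower in 3 of 3 arrays but failed the correction. Among all genes Nampt ranked 177 by p, and 5.95% of genes had an unadjusted p under 0.05.

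Nampt was lowest on the 2 arrays rich in hepatocyte transcripts, at 8.53 and 8.63. In chromium restriction replicate 2, where hepatocyte markers were at control level, it was 8.85, only 0.18 below the lowest control at 9.03. Without both arrays rich in hepatocyte transcripts, which left 1 chromium restriction array, the log2 difference was -0.50. With the hepatocyte mean as a covariate it was -0.49, and with the mean of 11 adipocyte markers -0.52. It was -0.66 when Cidea, which is also a brown fat gene, was left out of that mean. The unadjusted p in limma was 0.0532, 0.123 and 0.0339 with these covariates in turn, against 0.00494 without a covariate. Without the 2 controls with raised Ucp1, the brown fat uncoupling protein, the log2 difference was -0.82, against the 1 remaining control. The part of hepatocyte transcripts in the Nampt difference was not tested.

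Other genes of NAD metabolism showed smaller differences. Of 14 measured, 6 were higher and 8 lower, 0 passed limma's test and 0 had an unadjusted p under 0.05. Nmnat1, which makes NAD in the nucleus from the product of Nampt, differed by -0.38 ± 0.18 (SE, n = 3, limma adjusted p = 0.833). Nmnat3, its mitochondrial counterpart, differed by -0.15 and Parp1, which consumes NAD, by -0.13, with limma adjusted p of 0.844 and 0.880. Qprt, an enzyme of NAD synthesis from tryptophan, differed by 0.48 (limma adjusted p = 0.872). In 1 of the 14, Parp1, the groups did not overlap, against 9.6% of all genes.

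Circadian clock genes were considered beside Nampt because its promoter is a known target of the clock activators. Of 16 measured, 0 passed limma's test, while in 3 the groups did not overlap with higher values and in 6 with lower values in the chromium restriction group. Over all genes those shares were 3.53% and 6.06%. The smallest p of the list belonged to Dbp, an output gene of the loop, at 9.11, 9.09 and 9.02 in chromium restriction arrays, against 9.94, 9.97 and 10.38 in controls. It differed by -1.02 ± 0.13 (SE, n = 3, limma adjusted p = 0.0789), the nearest of the list to the threshold. That adjustment included the rows with extra digits, and with those rows left out 0 genes passed. Arntl and Npas2, both activators, differed by 0.81 and 0.66, and Per3, a period gene, by -0.82, with limma adjusted p of 0.285, 0.313 and 0.462. The time of day at which tissue was taken is not stated in the labels, and its part in these values was not tested.

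Nrg4 had log2 intensities of 6.78, 7.91 and 7.14 in chromium restriction replicates 1, 2 and 3, against 8.20, 8.11 and 8.27 in the controls. All 3 chromium restriction values lay below all controls, but replicate 2 lay only 0.19 below the lowest. The mean was 7.28 ± 0.58 in the chromium restriction group and 8.19 ± 0.08 in controls (SD, n = 3 each), so the spread was wider in the chromium restriction group. The log2 difference was -0.91 (95% interval -1.58 to -0.24), a 1.88-fold lower level, with an unadjusted p of 0.0153 and a limma adjusted p of 0.751.

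The size of the Nrg4 difference varied with the arrays and covariates used, and the part of marker levels in it was not tested. The 2 low arrays, replicates 1 and 3, were those rich in hepatocyte transcripts. Without both, the log2 difference was -0.28, and with the hepatocyte mean as a covariate it was -0.31. With the mean of 11 adipocyte markers as a covariate it was -0.22, and -0.45 without Cidea. Without chromium restriction replicate 2 the difference was -1.23 and passed limma's test (adjusted p = 0.0102). In that fit 439 of 22180 genes passed, against 43 with all arrays. Both chromium restriction arrays left in it were rich in hepatocyte transcripts.

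Adipocyte markers were lower as well. All 11 measured were lower in the chromium restriction group by mean, with a median log2 difference of -0.22, although 0 passed limma's test. Over all genes 56.8% were lower by mean. Without Cidea the mean of the other 10 was 10.88, 11.34 and 11.27 in chromium restriction replicates 1, 2 and 3, against 11.33, 11.44 and 11.54 in the controls. Brown fat markers were highest in control replicate 1. Ucp1 was at 4.87, 4.92 and 4.95 in chromium restriction arrays, against 10.25, 4.89 and 7.37 in controls, and without the 2 controls where it was raised the Nrg4 difference was -0.83, against 1 control.

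**Figure D3:**
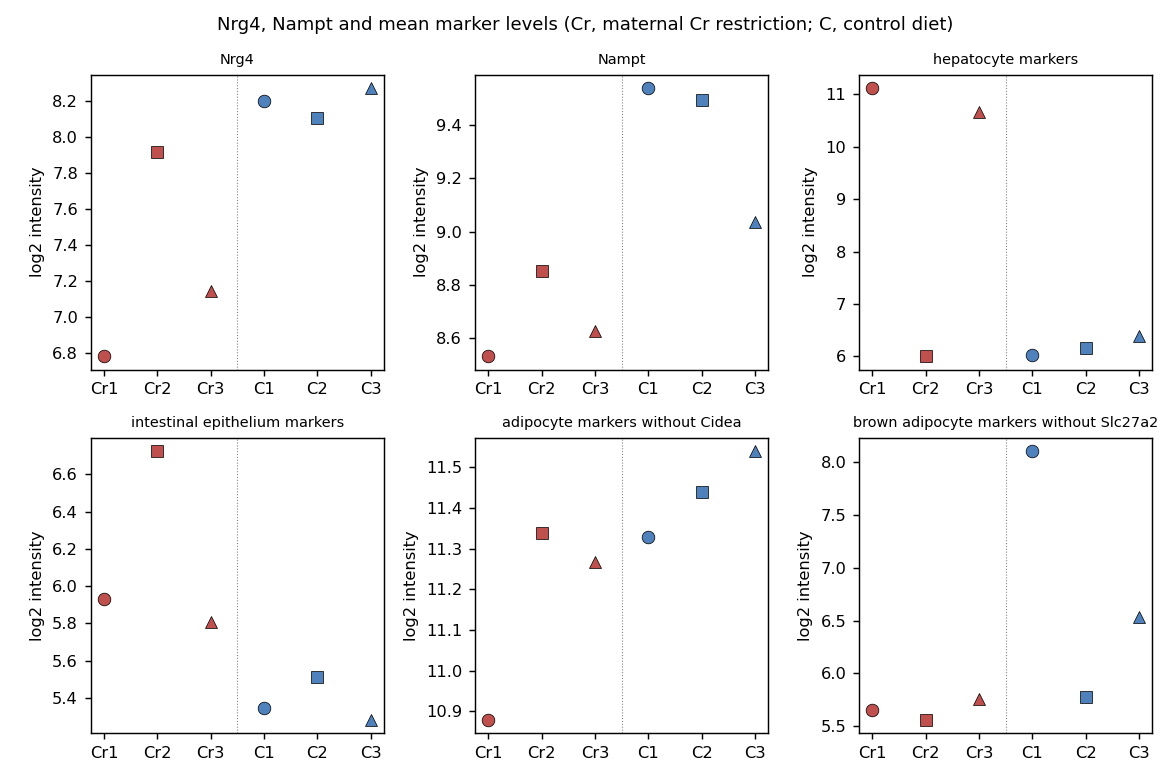
Log2 intensity of Nrg4 and Nampt and the mean log2 intensity of 4 marker lists on each array, chromium restriction replicates (Cr1 to Cr3) left of the control replicates (C1 to C3). Both Nrg4 and Nampt are below all controls on all 3 chromium restriction arrays. Both are lowest on the 2 arrays where hepatocyte markers average 11.12 and 10.66.

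Neither receptor of Nrg4 passed the test. Erbb3 was at 7.06, 6.28 and 6.55 in chromium restriction arrays, against 5.62, 5.65 and 6.14 in controls, and the groups did not overlap. Its log2 difference was 0.83 ± 0.23 (SE, n = 3, limma adjusted p = 0.725), and it was highest in replicates 1 and 3, the arrays rich in hepatocyte transcripts. Erbb4 was at 4.76 to 5.15 in chromium restriction arrays and 4.92 to 5.10 in controls, below every array median, and differed by -0.045. Of 8 measured ligands of the same growth factor family, 0 passed. Nrg1 differed by 0.18 ± 0.08 (SE, n = 3, limma adjusted p = 0.817), with groups that did not overlap, and Hbegf by 0.24.

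Apln had log2 intensities of 5.55, 5.63 and 6.05 in chromium restriction replicates 1, 2 and 3, against 5.26, 5.59 and 5.68 in the controls. These values lay near the array medians and the groups overlapped. The mean was 5.74 ± 0.27 in the chromium restriction group and 5.51 ± 0.22 in controls (SD, n = 3 each). The log2 difference was 0.24 (95% interval -0.18 to 0.66, limma adjusted p = 0.939). Aplnr, its receptor, differed by -0.096, and Apela, the other ligand of that receptor, by -0.077. Endothelial markers, 10 of 10 measured, had a median log2 difference of 0.097.

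Serpina12 was below the median on all 6 arrays, at 4.68, 4.86 and 4.72 in chromium restriction replicates 1, 2 and 3, against 4.68, 4.91 and 4.71 in the controls. The groups overlapped, with means of 4.75 ± 0.09 in the chromium restriction group and 4.76 ± 0.13 in controls (SD, n = 3 each). The log2 difference was -0.012 (95% interval -0.24 to 0.22, limma adjusted p = 0.997). No background level of the arrays was given, and vaspin mRNA gets no fold here. Hspa5, a chaperone reported as a cell surface partner of vaspin, differed by 0.11.

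**Figure D4:**
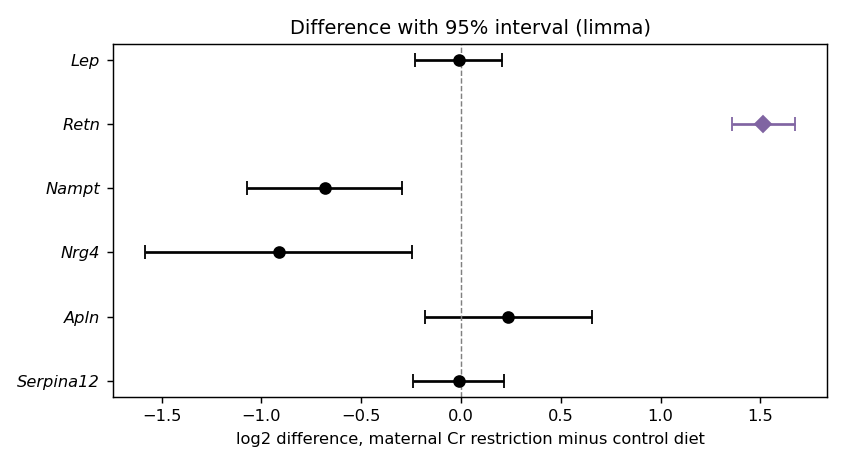
Log2 difference between chromium restriction and control arrays for the 6 measured adipokines, with 95% intervals from limma. The diamond marks Retn, whose row carries extra digits at 1.52, while the intervals of Nampt (-1.07 to -0.29) and Nrg4 (-1.58 to -0.24) lie below 0 and those of Lep, Apln and Serpina12 include 0.

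**Figure D5:**
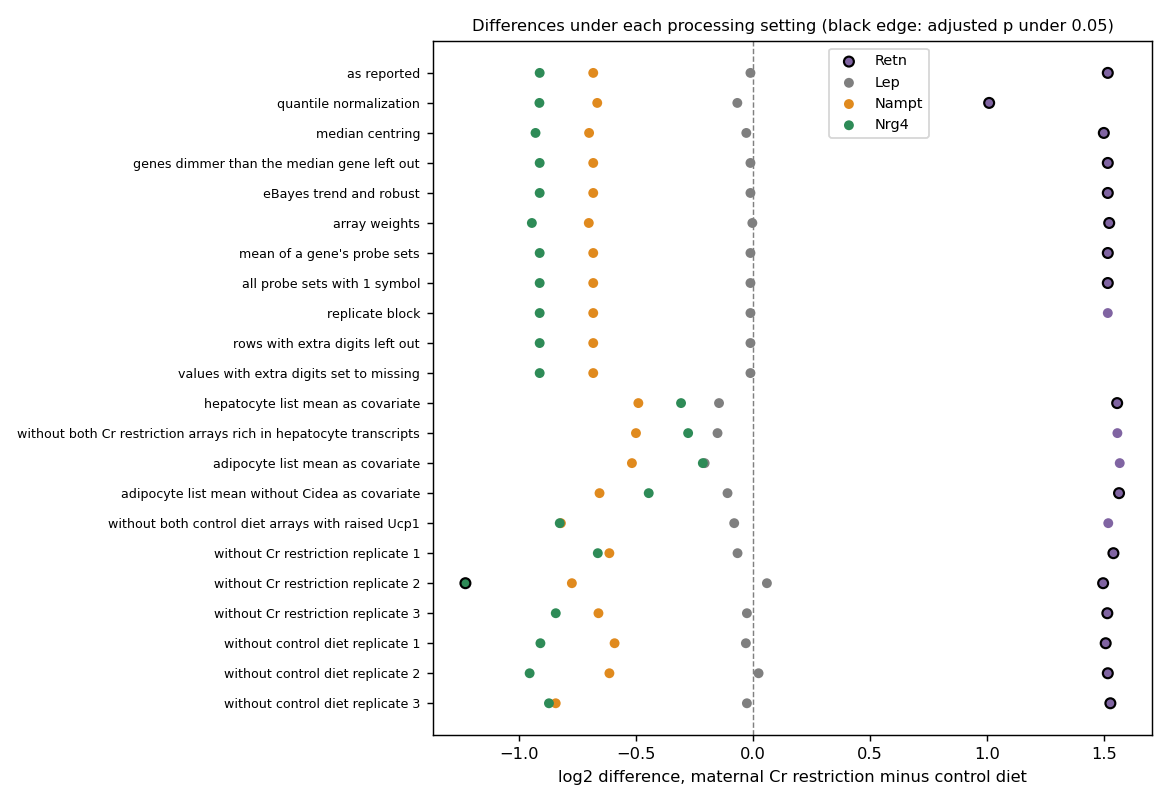
Log2 difference between chromium restriction and control arrays for Retn, Lep, Nampt and Nrg4 (horizontal axis) under each processing setting (one per line), with a black edge where the adjusted p was under 0.05. In the settings that use hepatocyte or adipocyte markers, Nrg4 moves from -0.91 as reported to between -0.45 and -0.22. Nampt moves from -0.68 to between -0.66 and -0.49 in the same settings. Over all settings Nrg4 lies between -1.23 and -0.22 and Nampt between -0.84 and -0.49.

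The partners of the 2 adipokines without a usable probe set could be read in part. Of 11 measured receptors and binding partners, listed for the adipokines as a whole, 0 passed. Those of chemerin among them were Cmklr1, Gpr1 and Ccrl2, and none was listed for adipsin. Cmklr1, the chemerin receptor on macrophages and adipocytes, was at 7.52, 8.07 and 8.23 in chromium restriction arrays, against 8.01, 7.26 and 7.87 in controls, with overlapping groups. Gpr1, a further chemerin receptor, differed by -0.18 and Ccrl2, which binds chemerin without signalling, by -0.077.

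Of 8 measured genes of the alternative complement pathway, in which adipsin acts, 7 were higher by mean, beside 43.2% of all genes, and 0 passed. Cfb, the substrate that adipsin cleaves, differed by 0.80 ± 0.37 (SE, n = 3, limma adjusted p = 0.817). Hc, complement C5, was at 9.09, 4.80 and 8.51 in chromium restriction arrays, against 4.93, 5.02 and 4.97 in controls, high on the arrays rich in hepatocyte transcripts. Cfb, at 10.32, 9.09 and 10.02 in chromium restriction arrays, against 8.59, 8.93 and 9.50 in controls, and Masp1, which differed by 0.74, were also highest on those arrays. C5ar2 differed by 0.17. The part of hepatocyte transcripts in these differences was not tested.

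Among 11 measured proteases that process adipokines or are inhibited by vaspin, 7 were higher by mean and 0 passed. Plg, the plasminogen of liver, was at 10.26, 5.25 and 9.70 in chromium restriction arrays, against 5.46, 5.74 and 5.40 in controls, and Cpn1 followed the same arrays. Ctss, a lysosomal protease of macrophages, was at 10.10, 10.21 and 9.28 in chromium restriction arrays, against 9.42 or less in controls, and differed by 0.69 ± 0.26 (SE, n = 3, limma adjusted p = 0.817). Macrophage markers, 10 of 10 measured, had a mean of 8.97, 8.52 and 8.38 in the chromium restriction group, against 8.18, 8.58 and 8.61 in controls. Their part in the Ctss difference was not tested.

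Of 31 other secreted adipose factors, 2 passed limma's test and both were lower, where 0.104% of all genes passed downward. They were Adipoq (log2 difference -1.22), which encodes adiponectin, and Il6 (-0.99), both in rows with extra digits. Of the other 29, 0 passed, and their median log2 difference was 0.13. Sfrp5, a secreted Wnt inhibitor, was at 8.06, 6.83 and 9.14 in chromium restriction arrays, against 6.24, 6.03 and 6.51 in controls, without overlap (log2 difference 1.75, limma adjusted p = 0.770). C1qtnf12 differed by -0.61 and C1qtnf1 by 0.26, both members of a family related to adiponectin, again without overlap (limma adjusted p of 0.746 and 0.763).

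The profiles most like each adipokine over the 6 arrays were sought by the root mean square difference of mean-centred log2 values, among genes brighter than the median gene and outside rows with extra digits. For Nampt they were Pik3r1 (0.081 log2 units), Fam214a (0.096) and Fkbp5 (0.11), where a flat profile would differ from Nampt by 0.39. For Nrg4 they were Lgals12 (0.065), Gys1 (0.073) and Car13 (0.077), against 0.57 for a flat profile. Lgals12, for example, was at 10.05, 11.28 and 10.55 in chromium restriction arrays, against 11.48, 11.38 and 11.69 in controls, lowest on the same arrays as Nrg4. For Retn they were Fabp2 (0.28), Mgam (0.32) and Fos (0.34), beside 0.76 for a flat profile. For Apln they were Odc1 (0.050), Ctcflos (0.067) and Tln2 (0.070), beside 0.23. Lep varied little, at 0.082 for a flat profile, and lay nearest to Myo19, Crybb2 and Fam214b at 0.031 to 0.036. Serpina12, at 0.091 for a flat profile, lay nearest to Tent5b, Lrrc3c and Csrnp2 at 0.018 to 0.031. Over 6 arrays and this many genes such likeness is a description only.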

How the data were processed

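The deposited table holds the authors' processed values for 33793 probe sets on 6 arrays, taken to be log2 intensities from their range of 3.49 to 14.86. The labels state neither log base, summarisation nor normalization, and the values were used as they stand. The platform annotation gave 1 symbol for 23521, several for 1814 and none for 8458. Each of 22180 genes was represented by its brightest probe set on average, without a filter on dim values. Promoters came from a RefSeq table of GRCm38.p6, in which 7 of the 8 genes were matched. limma 3.58.1 (lmFit, eBayes; R 4.3.3) gave two-sided tests of chromium restriction minus control, p-values were adjusted by Benjamini-Hochberg over all genes tested, and calls were made at 0.05. The scripts were tested on simulated data.

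A value was counted as having extra digits where it differed from the shortest decimal text of its single-precision number. Named were all measured members, of each pathway list the genes past the test and up to 4 others with the smallest p outside rows with extra digits, leading markers of each marker list, and the 3 nearest profiles of each member. Some other receptors, markers and family members are named as well, for their role and after their values were seen. The members and lists were chosen with earlier results of these data known. Marker lists of skeletal muscle, skin, pancreas and mesothelium had median log2 differences of 0.028, -0.045, -0.040 and 0.24. Mesothelium markers averaged 6.71 in control replicate 1, against 7.69 and 7.98 in control replicates 2 and 3. In chromium restriction replicates 1, 2 and 3 they averaged 7.81, 7.57 and 7.73. Alternatives were other normalizations, filters, variance models and probe set rules, a replicate block, covariates and arrays left out. Same-numbered arrays of the 2 groups deviated with correlations of -0.12, -0.095 and 0.078, so the numbers were not taken as pairs.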

Additional observations from a re-analysis of the deposited data

How the results depend on the processing

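Nampt kept its direction and stayed short of the threshold under all 21 alternatives (log2 difference -0.84 to -0.49). Nrg4 kept its direction under all 21 (-1.23 to -0.22) and passed in 1, without chromium restriction replicate 2 (-1.23). Leaving out 1 array at a time gave -0.84 to -0.59 for Nampt, -1.23 to -0.66 for Nrg4, 1.495 to 1.54 for Retn, 0.082 to 0.33 for Apln, -0.067 to 0.058 for Lep and -0.065 to 0.060 for Serpina12. Lep turned positive without chromium restriction replicate 2 (0.058) or control replicate 2 (0.023). Serpina12 turned positive with quantile normalization (0.0030), the hepatocyte covariate (0.090), without both arrays rich in hepatocyte transcripts (0.095), with the adipocyte covariate without Cidea (0.064), and without chromium restriction replicate 1 (0.024) or 3 (0.0052) or control replicate 2 (0.060). Neither gene passed in any of these.

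The listed Retn difference stayed between 1.01, with quantile normalization, and 1.57. Its call was lost with the replicate block (1.52, limma adjusted p = 0.107), without both arrays rich in hepatocyte transcripts (1.56, adjusted p = 0.0570), with the adipocyte covariate (1.57, adjusted p = 0.0805) and without both controls with raised Ucp1 (1.52, adjusted p = 0.394). Each of these fits has fewer arrays or residual degrees of freedom, but so have others that kept the call. These were the hepatocyte covariate (limma adjusted p = 0.0169), the adipocyte covariate without Cidea (limma adjusted p = 0.0245) and each fit with 1 array left out. The reason for the lost calls was not tested. The number of adipokines past the test, 1 as reported, was 0 under the 4 settings that lost the Retn call and under both treatments of rows with extra digits. It was 2 without chromium restriction replicate 2. Leaving out 1 array gave 1 to 2. The number of genes past the test, 43 as reported, was 0 with the replicate block, with rows with extra digits left out or their values missing, with the adipocyte covariate and without both controls with raised Ucp1. With rows left out, 1264 genes had an unadjusted p under 0.05 in limma. It was 6 without both arrays rich in hepatocyte transcripts, 17 with the adipocyte covariate without Cidea, and 24 to 439 when 1 array was left out, with 439 without chromium restriction replicate 2 and 24 without its replicate 3 or without any 1 control. The cause of the changes in gene counts was not tested. The adipocyte covariates and the removal of the Ucp1 controls were chosen after seeing the data.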
